A study of Mus musculus with 48 samples.

Results

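The T cell genes of subcutaneous white adipose tissue (sWAT) described here are Cd3d, Cd3e, Cd3g, Cd4, Cd8a, Cd8b1, Lef1, Tcf7, Ccr7 and Foxp3. They were taken by name from the count table and are 10 of its 54532 genes, and all 10 were among the 19977 genes that passed the expression filter. The table holds bulk RNA-seq of inguinal fat (iWAT, the mouse sWAT depot) from C57BL/6 male mice (C57BL/6J in the paper) aged 8 months, fed ad-lib or twice-a-night (TAN), the latter with food offered in a pair of nightly windows. Both diets were sampled at 8AM, 12PM, 4PM, 8PM, 12AM and 4AM with 4 libraries each, 48 in all. The labels do not say whether a mouse gave more than 1 library, so p-values measure the spread between libraries. The animals carried no transgene or deletion that the labels name. The series text calls the material a stromal vascular fraction, whereas the paper calls it whole sWAT, and the adipocyte markers were abundant in these libraries (Adipoq, an adipocyte hormone, averaged 3178 CPM, counts per 1e+06 counts with library sizes scaled by edgeR's TMM factors).

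The time labels carry a doubt that precedes every result. Against the per-animal FPKM values of 20 genes that accompany the paper, each of the 48 libraries matched a column that carries its own animal name but a time shifted by 12 h, and 0 matched at the labelled time. Times below are those of the count table. The TAN and ad-lib libraries compared at a time point are the same under either labelling, as is the mean over the 6 time points.

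T cells recognise antigen through a receptor that signals through the CD3 chains, which Cd3d, Cd3e and Cd3g encode and which every conventional T cell carries. The co-receptors CD4 and CD8 (Cd8a and Cd8b1 encode the 2 CD8 chains) divide helper from cytotoxic cells. Naive T cells, which recirculate between blood and lymph nodes, express the homing receptor CCR7 and the transcription factors TCF1 (Tcf7) and LEF1, and regulatory T cells, a known resident of lean adipose tissue, are defined by the transcription factor FOXP3. Inguinal fat surrounds a lymph node, whose B cells, high endothelial venules and stroma have marker genes of their own. In bulk tissue, fewer cells of a type and less RNA per cell cannot be told apart.

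The 3 CD3 genes lie in 1 cluster on chromosome 9 (GRCm38). Cd3g (9:44969572-44980431, minus strand) and Cd3d (9:44981786-44987339, plus strand) start 1355 bases apart and point away from each other, and the start of Cd3e (9:44998740-45009627, minus strand) lies 27841 bases beyond that of Cd3d. The 250 bases upstream of the RefSeq start of each CD3 gene are shown, with those of the first Foxp3 start for comparison. For Cd3e the RefSeq start lies inside the listed gene span, so its window (from 45009612) overlaps the end of that span (45009627). They run 5′ to 3′ on the strand of the gene (RefSeq sequence, GRCm38.p6). Any part of these sequences in the levels was not tested. Capitals mark matches, on either strand, to a TCF/LEF motif (the letters CTTTGAA, else CTTTGAT, else CTTTGTA, else CTTTGTT) or an ETS motif (AGGAAGT), which do not overlap each other here. A RUNX motif (TGTGGTT) was searched too and had no match in these windows.
Cd3d (chr9:44981536-44981785, plus strand): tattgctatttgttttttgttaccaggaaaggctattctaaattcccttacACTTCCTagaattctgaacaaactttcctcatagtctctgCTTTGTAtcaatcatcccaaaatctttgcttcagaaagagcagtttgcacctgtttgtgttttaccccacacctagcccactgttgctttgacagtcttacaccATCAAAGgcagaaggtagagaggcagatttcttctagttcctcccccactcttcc
Cd3g (chr9:44980432-44980681, minus strand): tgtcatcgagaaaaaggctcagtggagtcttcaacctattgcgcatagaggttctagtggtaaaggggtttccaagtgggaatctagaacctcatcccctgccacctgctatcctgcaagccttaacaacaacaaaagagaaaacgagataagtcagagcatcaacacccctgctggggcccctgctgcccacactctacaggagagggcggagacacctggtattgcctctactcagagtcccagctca
Cd3e (chr9:45009612-45009861, minus strand): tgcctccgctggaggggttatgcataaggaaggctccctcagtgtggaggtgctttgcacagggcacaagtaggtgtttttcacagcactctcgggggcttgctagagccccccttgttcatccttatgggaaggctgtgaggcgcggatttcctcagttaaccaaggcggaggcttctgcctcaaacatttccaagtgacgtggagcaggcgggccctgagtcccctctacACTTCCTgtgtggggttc
Foxp3 (chrX:7579426-7579675, plus strand): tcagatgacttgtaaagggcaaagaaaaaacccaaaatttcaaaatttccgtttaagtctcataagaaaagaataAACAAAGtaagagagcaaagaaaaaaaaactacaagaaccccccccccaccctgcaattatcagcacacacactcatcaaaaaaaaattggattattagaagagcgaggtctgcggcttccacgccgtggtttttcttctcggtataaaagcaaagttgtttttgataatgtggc
Cd3d held 2 TCF/LEF matches, 159 and 55 bases before its start, and an ETS match at 199 bases. Cd3e held an ETS match 18 bases before its RefSeq start, Foxp3 a TCF/LEF match at 175 bases, and Cd3g no match to these letters. RefSeq promoters were found for 7 of the 10 genes, with 12 start sites, of which 3 held a TCF/LEF match, 3 an ETS match and 0 a RUNX match. Over all 32851 promoter windows of the same length, 14.8% held a TCF/LEF match, 7.69% an ETS match and 4.4% a RUNX match.

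The remaining members lie apart from the CD3 cluster. Cd8b1 (6:71322788-71337494) and Cd8a (6:71373427-71379173) are neighbours on the plus strand of chromosome 6, with 35933 bases between them, and Cd4 lies on the same chromosome (6:124864692-124888221, minus strand). Lef1 is on chromosome 3 (131110471-131224356, plus strand), Tcf7 and Ccr7 are on chromosome 11 (52252371-52283014 and 99144196-99155077, both minus strand), and Foxp3 is on chromosome X (7579676-7595243, plus strand). The spans of Foxp3 (with Ccdc22, Flicr and Gm36995), Cd3e (Gm48719 and Gm48720), Lef1 (Gm43352 and Gm42449) and Tcf7 (A630014C17Rik and Gm26551) overlap other genes, whose level reached at most 3.85 CPM in any library. Strandedness of the counting was not stated, so reads of overlapping genes could not be separated further.

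The T cell genes varied over orders of magnitude between libraries of each diet. Per kilobase of the listed gene length, Ccr7 had the highest median level (43.0 CPM per kb), followed by Cd8b1 (38.2), Cd3d (27.1), Cd8a (24.5), Tcf7 (20.2), Cd3g (18.7), Cd4 (12.3), Cd3e (7.72), Lef1 (2.79) and Foxp3 (0.459). Ccr7 exceeded Cd8b1 in 31 libraries, Cd3d exceeded Cd8a in 30 and Tcf7 exceeded Cd3g in 25, so these neighbours did not keep their order from library to library. Cd3e exceeded Lef1 in all 48 and Lef1 exceeded Foxp3 in 42. The regulatory gene thus had the lowest level per length of the 10.

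Without length scaling, Cd3e ranged in the 24 ad-lib libraries from 0.130 to 69.8 CPM with a median of 37.6, and in the 24 TAN libraries from 0.314 to 136 CPM with a median of 26.7. Ccr7 ranged from 0.0864 to 185 CPM with a median of 90.8 in ad-lib libraries, and from 0.648 to 381 CPM with a median of 76.1 in TAN libraries. Foxp3, at 0 to 209 counts a library, ranged from 0 to 6.28 CPM with a median of 1.45 in ad-lib libraries, and from 0 to 8.38 CPM with a median of 2.13 in TAN libraries. The ranges of the 2 diets overlapped for each of these genes. Foxp3 had 0 counts in 3 ad-lib and 5 TAN libraries, and a count of 0 allows up to 3 counts, or 0.0920 to 0.217 CPM depending on the library (counting error only).

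In 9 libraries the CD3 genes together had fewer than 100 counts. These were ad-lib replicates 1 and 3 at 12PM and 3 at 4AM, and TAN replicates 1, 2 and 4 at 4PM, 4 at 8PM, and 2 and 4 at 12AM. The 10 members summed to 4.58 to 22.3 CPM there and to 22.5 to 2701 CPM in the other 39 libraries. The 10 B cell markers summed to 8.32 to 34.7 CPM in the 9 libraries and to 16.2 to 1830 CPM in the others, and 8 genes of lymph node stroma and venules to 7.35 to 37.0 and 38.8 to 621 CPM. B cell and lymph node genes were thus low in the same libraries as the T cell genes, and how much tissue of a node each library held was not tested. The methods give removal of the lymph nodes for the isolation of stromal cells, and for the bulk RNA it is not given in the sources used here.

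**Figure D1:**
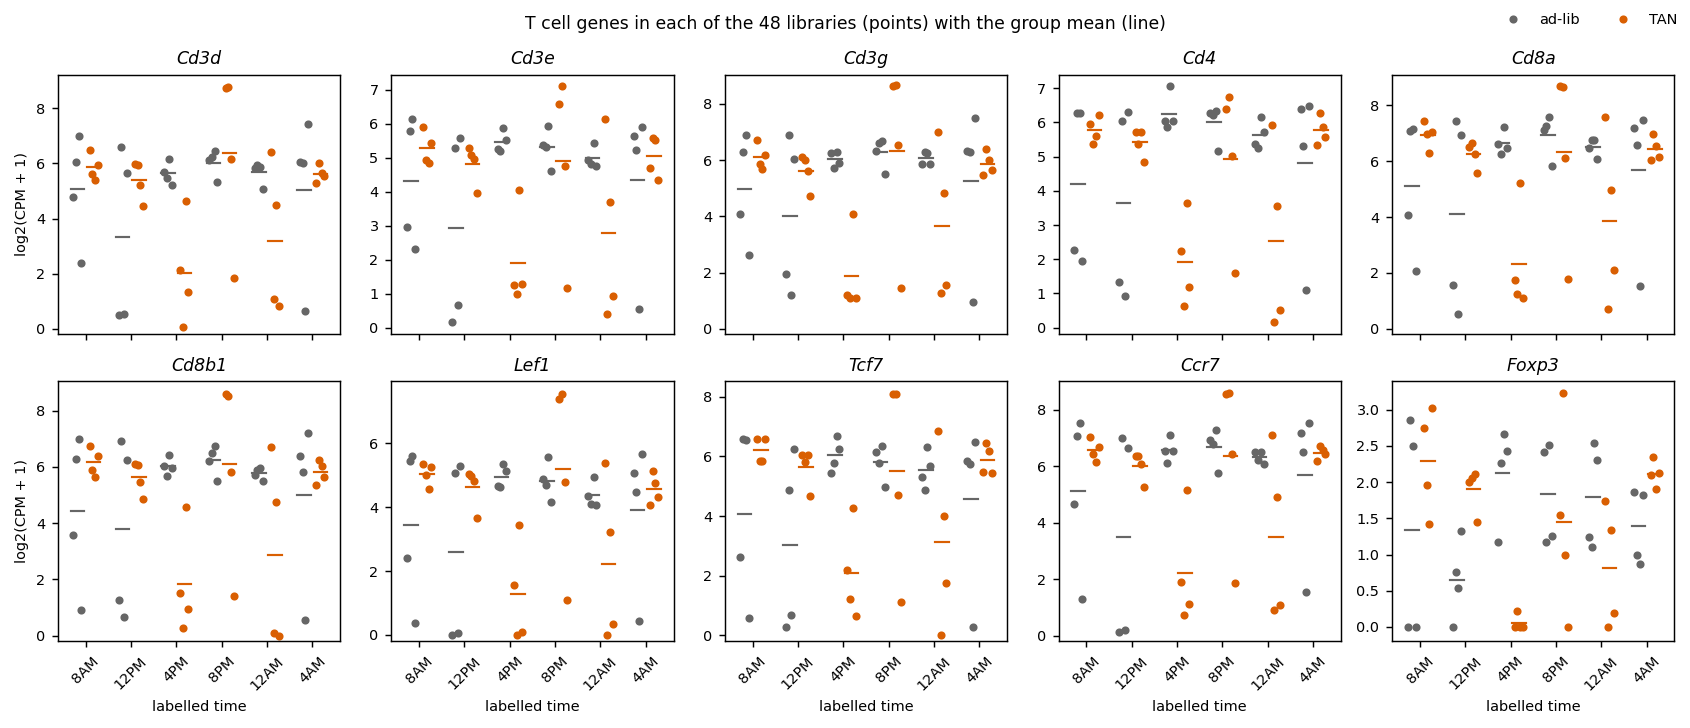
Level of each T cell gene, as log2(CPM + 1), in each of the 48 libraries by labelled time; points are libraries (ad-lib gray, TAN orange) and lines are means of 4. TAN libraries are low at 4PM, libraries of both diets are low at other times, and TAN replicates 1 and 2 at 8PM are the 2 highest points for 8 of the 10 genes, all but Cd4 and Foxp3.

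**Figure D2:**
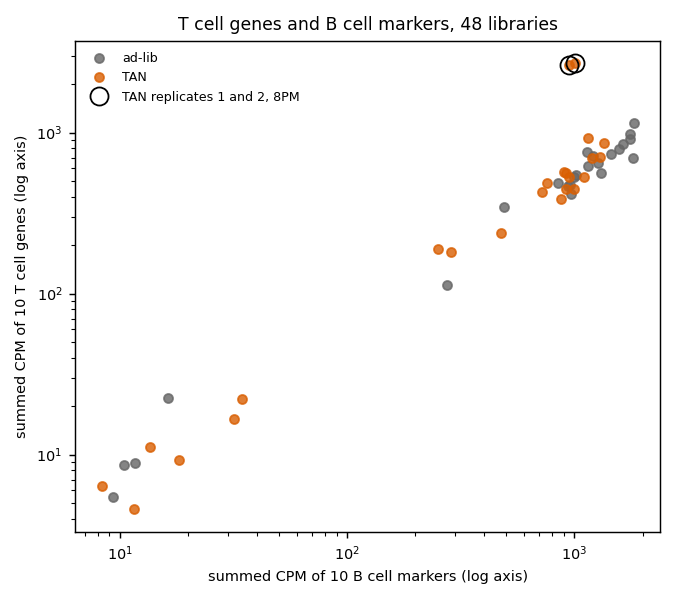
Summed CPM of the 10 T cell genes against the summed CPM of 10 B cell markers, 1 point per library, both axes logarithmic. Libraries low in T cell genes are low in B cell markers, and TAN replicates 1 and 2 at 8PM (circled) lie above the other 46.

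The comparison of TAN with ad-lib at each time point asked whether timed feeding altered T cell transcripts in sWAT. At 4PM all 10 members were lower in TAN, and Cd3g, Cd4 and Foxp3 passed the test (edgeR's quasi-likelihood test, Benjamini-Hochberg adjusted p below 0.05, with more than 1 log2 unit of change). At that time 1485 of 19977 genes tested (7.43%) were called lower, against 3 of the 10 members. The median log2 fold change at 4PM was −3.32 over the members and −0.09 over all genes tested. For all 10 members the 4 TAN libraries lay below the 4 ad-lib libraries, as they did for 3556 of the 19977 genes (17.8%). At 4PM the B cell markers summed to 8.32 to 251 CPM in TAN and 940 to 1644 CPM in ad-lib libraries, and the lymph node genes to 7.35 to 71.6 and 237 to 396 CPM, with Ccl21a, Ccl19, Madcam1, Glycam1 and Chst4 at 0 counts in at least 1 TAN library and none of the 8 at 0 in an ad-lib library. The 8 adipocyte markers were higher in the same TAN libraries, summing to 30225 to 55925 CPM against 12179 to 20236 CPM. The part of these cells in the result was not tested.

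Among the CD3 chains at 4PM, Cd3g stood at 1.28, 1.13, 16.01 and 1.12 CPM in TAN replicates 1 to 4 and at 76.0, 51.8, 76.7 and 59.1 CPM in the ad-lib libraries. TAN replicate 3 was higher than the other 3 TAN libraries and still below each ad-lib library. Cd3g fell by 3.74 ± 1.31 (SE, n = 4 per group) on the log2 scale in edgeR (adjusted p = 0.0473). Cd3d was at 3.36, 0.0540, 24.02 and 1.51 CPM in TAN and 50.2, 43.9, 70.8 and 36.6 CPM in ad-lib libraries, with a log2 fold change of −2.79 ± 1.36 (edgeR adjusted p = 0.144). Cd3e was at 1.40, 0.973, 15.4 and 1.45 CPM in TAN and 37.0, 35.9, 57.9 and 44.6 CPM in ad-lib libraries, with a log2 fold change of −3.18 ± 1.302 (edgeR adjusted p = 0.0836). Neither Cd3d nor Cd3e passed the threshold, although their groups did not overlap.

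The helper co-receptor gene Cd4 was at 3.72, 0.540, 11.4 and 1.28 CPM in TAN and 64.5, 56.9, 132 and 64.7 CPM in ad-lib libraries at 4PM. It fell by 4.22 ± 1.33 on the log2 scale (edgeR adjusted p = 0.0321, n = 4 per group), the largest fitted change of the co-receptors. The CD8 chains Cd8a and Cd8b1 averaged 10.4 ± 17.5 and 6.44 ± 10.9 CPM (SD, n = 4) in TAN and 101 ± 31.2 and 64.8 ± 14.3 CPM in ad-lib libraries. Their log2 fold changes were −3.28 ± 1.40 and −3.32 ± 1.501 (edgeR adjusted p = 0.0947 and 0.116), short of the threshold.

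The naive genes at 4PM gave values close to those of the CD8 chains. Ccr7 was at 2.75, 0.648, 34.5 and 1.17 CPM in TAN and 91.2, 67.6, 138 and 92.4 CPM in ad-lib libraries, Tcf7 at 3.601, 1.35, 18.5 and 0.558 against 42.5, 54.2, 102 and 74.7 CPM, and Lef1 at 1.95, 0, 9.95 and 0.0558 against 23.999, 23.7, 39.9 and 33.8 CPM. TAN replicate 3 was again the highest of the TAN libraries for each. The log2 fold changes were −3.31 ± 1.46 for Ccr7, −3.50 ± 1.49 for Tcf7 and −3.32 ± 1.504 for Lef1 (edgeR adjusted p = 0.107, 0.0947 and 0.116, n = 4 per group), and none was called.

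Foxp3 had 0, 3, 0 and 0 counts in TAN replicates 1 to 4 at 4PM and 22, 77, 137 and 118 counts in the ad-lib libraries (edgeR adjusted p = 0.0112). Summed over libraries, 354 counts against 3 gave a depth-scaled ratio of 97.3 with a 95% exact interval of 33.0 to 474, which covers counting error alone. Unlike the other 9 genes, Foxp3 was not raised in TAN replicate 3, which had 0 counts of Foxp3 beside 1198 CD3 counts. That 0 allows up to 2.50 Foxp3 counts per 1000 CD3 counts, and the ad-lib libraries at 4PM had 7.65 to 31.4.

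The number of calls at 4PM depended on single libraries. Without TAN replicate 3, 9 members were called (all but Tcf7), and without ad-lib replicate 3 or 4, or TAN replicate 1, 2 or 4, 1 was, Foxp3. Of all genes, 1468 were called lower without TAN replicate 3, and 235 to 950 in the other fits just named. Without ad-lib replicate 1 or 2 Cd4 and Foxp3 were called, and the Cd3g call was also lost when single libraries of other time points were left out, TAN replicate 1 at 8AM for example. DESeq2 called 8 and limma voom 1, with 2198 and 1836 of all genes called lower. With the mean log2 CPM of the B cell markers as a covariate 0 members were called at 4PM, as were 0 of all genes. The covariate also turned the direction at 4PM of 7 of the 10 members, with Lef1 at 1.54 ± 0.55, Tcf7 at 1.40 ± 0.62, Cd3d at 1.10 ± 0.52 and Ccr7 at 0.98 ± 0.36 (edgeR adjusted p = 0.348 to 0.468), and took Cd4 to −0.20 ± 0.44 (0.901). Cd3g stood at −0.20 ± 0.50 (0.911). Foxp3 stayed lower in TAN, at −3.54 ± 1.44 (edgeR adjusted p = 0.412), a value that rests on 3 TAN counts.

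**Figure D3:**
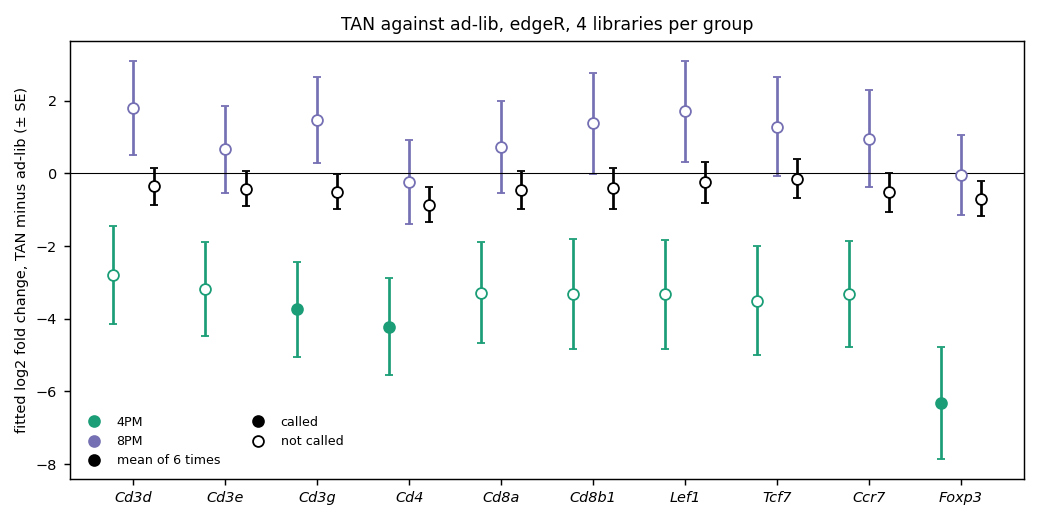
Fitted log2 fold change of each T cell gene, TAN minus ad-lib, with its SE, at 4PM, at 8PM and for the mean of the 6 time points (4 libraries per group); filled points were called and open points were not. All 10 genes lie below 0 at 4PM, where Cd3g, Cd4 and Foxp3 were called. The Foxp3 value at 4PM rests on 3 TAN counts and depends on the prior count.

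At the other time points 0 of the 10 members were called, and 0 had an unadjusted p under 0.05. Genes called in either direction numbered 3 (0.0150%) at 8AM, 18 (0.0901%) at 12PM, 1404 (7.03%) at 8PM, 27 (0.135%) at 12AM and 0 (0%) at 4AM. DESeq2 and limma voom gave 0 called members at these times too. At 8AM the log2 fold changes of the members lay between 0.09 and 0.77, at 12PM between 0.05 and 2.07, at 12AM between −1.48 and −0.58, and at 4AM between −0.62 and 0.94. The 2.07 at 12PM was that of Foxp3, at 3.001, 3.15, 3.31 and 1.74 CPM in TAN and 0, 0.687, 0.445 and 1.51 CPM in ad-lib libraries (edgeR adjusted p = 0.731). The lowest TAN library, at 1.74 CPM, lay just above the highest ad-lib library, at 1.51 CPM, for Foxp3 at 12PM. The share of all genes that did so was not computed, so this separation cannot be judged. Ad-lib replicates 1 and 3 at 12PM had only 79 and 47 CD3 counts. The Cd3e groups overlapped, at 37.7, 33.0, 30.0 and 14.5 CPM in TAN and 0.130, 38.1, 0.593 and 47.2 CPM in ad-lib libraries.

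At 12AM the TAN libraries spread over 2 orders of magnitude. Cd3e was at 69.9, 0.314, 12.0 and 0.900 CPM there against 29.3, 27.1, 42.5 and 26.1 CPM in ad-lib libraries, and Ccr7 at 138, 0.879, 28.8 and 1.11 against 90.3, 73.2, 89.4 and 67.4 CPM. TAN replicate 1 exceeded each ad-lib library and TAN replicates 2 and 4 were near 0, so the groups overlapped. At 8AM it was the ad-lib libraries that spread, with Cd3e at 6.82, 54.6, 69.8 and 3.97 CPM against 59.1, 29.8, 27.6 and 42.5 CPM in TAN libraries.

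Over the mean of the 6 time points, 0 of the 10 members were called, with 394 of all genes called (1.97%). DESeq2 and limma voom called 0, and 0 members passed at an unadjusted p under 0.05. All 10 fitted values were below 0, from −0.14 ± 0.55 (SE) for Tcf7 to −0.86 ± 0.48 for Cd4, with a median of −0.43 against −0.08 over all genes, and Foxp3 had −0.69 ± 0.47. The lowest adjusted p was 0.296, for Cd4 (edgeR). With the B cell marker covariate 8 of the 10 values were above 0, all but Cd4 (−0.16 ± 0.15) and Foxp3 (−0.34 ± 0.39).

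TAN replicates 1 and 2 at 8PM stood apart from all other libraries in the T cell genes. Cd3d was at 424 and 442 CPM there, against 71.3 and 2.59 CPM in TAN replicates 3 and 4 and at most 172 CPM in the other 46 libraries of the series. Cd3g reached 392 and 403 CPM (at most 181 elsewhere), Cd8a 411 and 403 (190), Cd8b1 387 and 363 (146), Lef1 167 and 186 (49.9), Tcf7 274 and 273 (113), and Ccr7 374 and 381 (185). Each of these 7 genes was higher in both of these libraries than in any other. Cd3e reached 94.5 and 136 CPM against at most 69.9. The same libraries had the lowest adipocyte marker sums of the 48, at 8075 and 5043 CPM (10789 CPM in the next lowest, median of all 48 21700 CPM), and macrophage marker sums of 2543 and 2735 CPM against 368 to 4093 CPM over all libraries. Their part in these levels was not tested.

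For Cd4 and Foxp3, TAN replicates 1 and 2 at 8PM were not the 2 highest libraries. Cd4 was at 83.8 and 107 CPM, below the 132 CPM of ad-lib replicate 3 at 4PM, and Foxp3 at 1.92 and 8.38 CPM, ranked 24th and 1st of the 48. A list of 16 other genes associated with regulatory T cells summed to 727 and 653 CPM there, against at most 343 CPM in any other library. That was not particular to this list, as the other T cell lists described below were also highest there. The effector and cytotoxic list summed to 1404 and 1531 CPM (at most 617 elsewhere) and the naive-associated list to 1712 and 1751 CPM (1211). The receptor and signalling list summed to 3625 and 3894 CPM (1640). Other T cell receptor genes, looked at after these values were seen, followed the CD3 genes. Trac, the receptor alpha constant region, was at 327 and 358 CPM (at most 129 elsewhere), Trbc1 at 420 and 418 (150) and the kinase gene Lck at 397 and 397 (236). The B cell markers looked at were not among their highest values there, with Ms4a1 at 127 and 120 CPM against a median of 199 elsewhere and Cd79a at 160 and 219 against 151. The recombinase genes of developing lymphocytes, Rag1 and Rag2, had 0 counts in both libraries, as they did in others of the 48, while Dntt, the terminal transferase of immature lymphocytes, was at 14.3 and 12.7 CPM, above the 7.21 CPM of the next library.

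**Figure D4:**
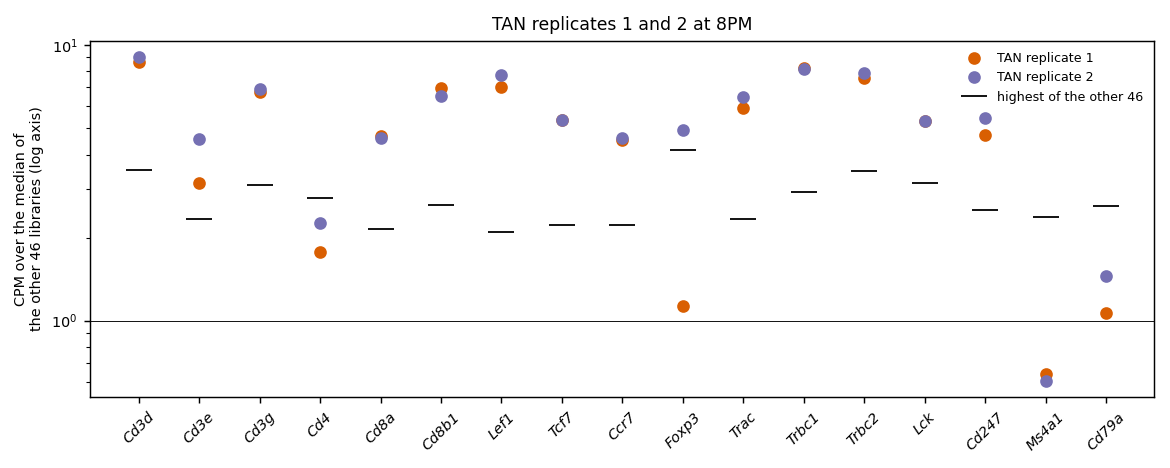
Level of each T cell gene, 5 further T cell receptor genes and the B cell markers Ms4a1 and Cd79a in TAN replicates 1 and 2 at 8PM, divided by the median of the other 46 libraries (log axis), with the highest of those 46 as a dash. Both points lie above the dash for the CD3, CD8 and naive genes and below it for Cd4 and the B cell markers.

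As a group, the 4 TAN libraries at 8PM did not pass the test against ad-lib, and replicate 4 of them was near 0. Cd3d had a log2 fold change of 1.81 ± 1.295 (edgeR adjusted p = 0.389, n = 4 per group), Lef1 1.71 ± 1.39 (0.461), Ccr7 0.95 ± 1.34 (0.701), Cd4 −0.24 ± 1.16 (0.924) and Foxp3 −0.05 ± 1.10 (0.987). With the B cell marker covariate, 8 members were called higher at 8PM, all but Cd4 and Foxp3, from 1.26 ± 0.38 for Cd3e to 2.47 ± 0.42 for Lef1, with 637 of all genes called higher (3.19%). Without TAN replicates 1 and 2 this count was 0, with 149 of 21708 genes called higher (0.686%).

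Variation over the 6 time points was tested within each diet. Within ad-lib mice 0 of the 10 members varied by edgeR's F test (adjusted p = 0.999974 for each, and 0 at an unadjusted p under 0.05), as 11 of all genes did (0.0551%), and limma voom gave 0. Within TAN mice Cd3g (adjusted p = 0.0453) and Foxp3 (0.0281) passed, with 4603 of all genes (23.0%). The count fell to 1 with TAN replicates 1 and 2 at 8PM left out and to 0 without TAN replicate 1 or 4 at 4PM, and rose to 5 without TAN replicate 1 at 12AM. Leaving out each of the 48 libraries in turn moved it by over 1.5 times in 34 cases. The TAN effect differed between time points for Foxp3 (edgeR F test, adjusted p = 0.0362) and for none of the other 9 members (0.243 to 0.525), with 1793 of all genes (8.98%). Foxp3 lost this call without ad-lib replicate 3 or 4 or TAN replicate 1, 3 or 4 at 4PM.

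Naive, regulatory and general T cell genes were then set against each other within libraries. In the 39 libraries with at least 100 CD3 counts, the summed CPM of Lef1, Tcf7 and Ccr7 per summed CPM of the CD3 genes had a median of 1.04 in 21 ad-lib libraries (0.168 to 1.43) and 1.14 in 18 TAN libraries (0.723 to 1.38). Foxp3 counts per 1000 CD3 counts had a median of 13.03 in ad-lib (0 to 34.2) and 20.5 in TAN libraries (0 to 41.0). Summed over all 24 libraries of a diet the order was the opposite, with 16.002 Foxp3 counts per 1000 CD3 counts in ad-lib and 13.2 in TAN. That TAN sum leans on replicates 1 and 2 at 8PM. They held 17984 and 24449 of its 90106 CD3 counts, with 38 and 209 Foxp3 counts. The ranges of the diets overlapped for both ratios. At 8PM the 3 TAN libraries with enough counts lay below the ad-lib libraries in the naive ratio, and 2 of the 3 did so for Foxp3. The naive ratio was 0.895, 0.856 and 0.723 in TAN replicates 1 to 3 against 0.898 to 1.16 in ad-lib libraries, and Foxp3 per 1000 CD3 counts was 2.11, 8.55 and 5.23 against 6.07 to 23.1. Per Cd3e alone, the order at 8PM differed between the naive genes, and Lef1 was the one of them whose groups lay apart, with TAN higher. Cd3d per Cd3e, given below, lay apart too, and the share of all genes that did so was not computed. In the test of differences described below, which keeps all libraries, Lef1 minus Cd3e at 8PM was 0.80 ± 1.10 (limma adjusted p = 0.999992). Lef1 per Cd3e was 1.02 to 1.76 in TAN against 0.640 to 0.776 in ad-lib libraries, Ccr7 per Cd3e 2.80 to 3.96 against 2.27 to 3.01, and Tcf7 per Cd3e 0.963 to 2.90 against 1.28 to 1.75.

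The ratios among general genes also moved. Cd3d per Cd3e, both CD3 chains, was 4.48, 3.25 and 2.76 in TAN replicates 1 to 3 at 8PM against 1.45 to 1.89 in the ad-lib libraries. Cd8a per Cd4 was 4.91, 3.77 and 2.19 there against 1.62 to 2.36. Outside TAN replicates 1 and 2 at 8PM, the highest values of both ratios, 3.89 and 4.10, were in ad-lib replicate 1 at 8AM, which had 752 CD3 counts and 0 of Foxp3. High values of both ratios were thus seen in both diets.

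**Figure D5:**
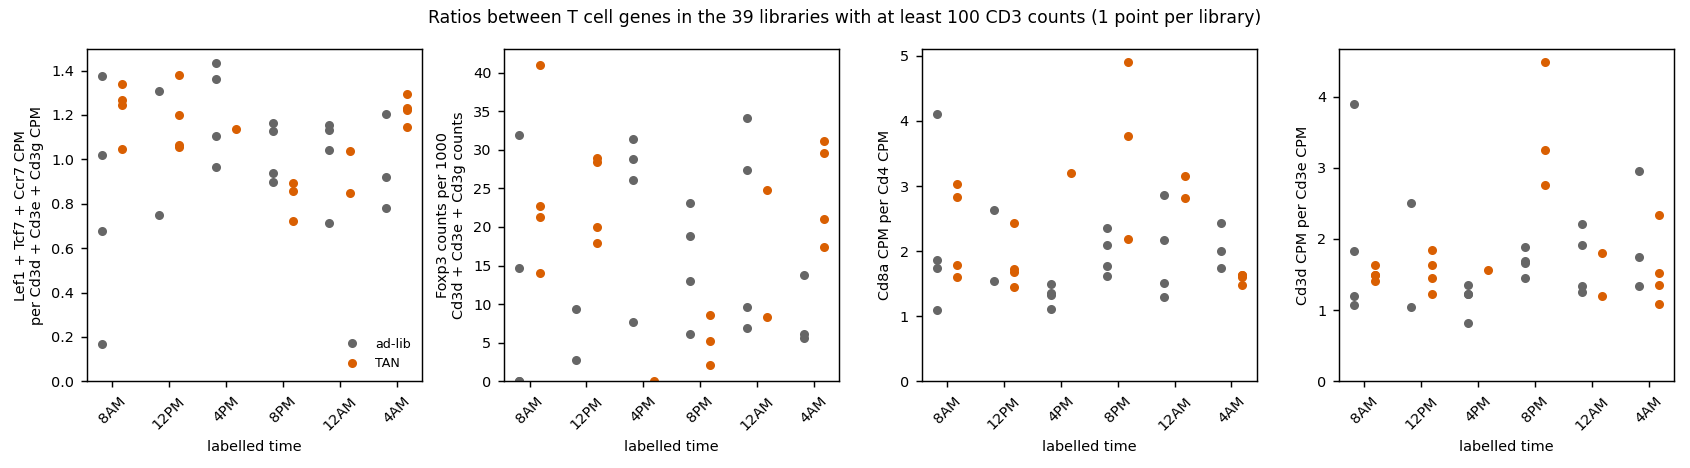
Ratios between T cell genes in the 39 libraries with at least 100 CD3 counts, by labelled time and diet (1 point per library): naive per CD3 level, Foxp3 counts per 1000 CD3 counts, Cd8a per Cd4 and Cd3d per Cd3e. The diets overlap at most times, and at 8PM the 3 TAN libraries are highest in Cd3d per Cd3e.

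The difference between genes was tested on log2 CPM of each gene minus that of Foxp3, or of Cd3e, in the same library (limma, adjusted over 19976 genes). At 4PM, where 3 TAN libraries had 0 Foxp3 counts, the log2 level of Foxp3 in TAN was set by the prior count of 2, so that the test says nothing of the ratio there, although 18384 of all genes passed it (92.0%). In counts, the 4PM libraries summed to 2.13 Foxp3 per 1000 CD3 counts in TAN and 24.3 in ad-lib. The TAN value is in effect that of 1 library. Replicate 3 held 1198 of the 1410 CD3 counts and 0 Foxp3 counts. The 3 Foxp3 counts were in replicate 2, beside 40 CD3 counts. At the other 5 times 0 of the other 9 members passed the test against Foxp3, as did 0 of all genes (0%), and over the mean, which includes 4PM, 0 members and 4 of all genes did (0.0200%). Over the mean Tcf7 stood at 0.25 ± 0.48 against Foxp3 and Cd4 at −0.50 ± 0.44 (limma adjusted p = 0.981 for both).

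Relative to Cd3e, 0 of the other 9 members passed the test either, where Foxp3 at 4PM has the same limit. Of all genes, 13607 (68.1%) passed at 4PM, 1 (0.00501%) over the mean and 0 (0%) at the other times. Over the mean the naive genes Lef1, Tcf7 and Ccr7 had differences from Cd3e of 0.14 ± 0.45, 0.34 ± 0.44 and 0.05 ± 0.43 and Foxp3 0.09 ± 0.55 (limma adjusted p = 0.973, 0.973, 0.984 and 0.977). With the B cell marker covariate, Tcf7 (0.87 ± 0.22, edgeR adjusted p = 0.0148) and Lef1 (0.78 ± 0.19, 0.0129) were higher in TAN over the mean of the time points, below the fold change threshold. Without TAN replicates 1 and 2 at 8PM these values were 0.47 ± 0.19 (0.129) and 0.50 ± 0.18 (0.0777).

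Other T cell lists, chosen like the members with earlier results of these data known, were also low in TAN at 4PM. They come from the same libraries and are no independent check. Of all genes tested, 7.43% were called lower at 4PM. Of 19 further genes of the T cell receptor complex and its signalling, 4 were called lower (Lcp2, Prkcq and Bcl11b among them) and 0 higher, with a median log2 fold change of −3.16. Its most abundant genes, the receptor constant regions Trbc2, Trac and Trbc1 and the kinase Lck, had values of −2.88 ± 1.38, −3.22 ± 1.31, −2.71 ± 1.31 and −3.13 ± 1.33 (edgeR adjusted p = 0.0808 to 0.141) and were not called. Of 10 further genes associated with naive cells 5 were called lower and 0 higher, with a median of −3.25. The interleukin-7 receptor Il7r fell from 128 to 7.09 CPM (edgeR adjusted p = 0.0294), and Satb1, a chromatin organiser, fell from 82.9 to 14.2 CPM (0.0319). S1pr1, the egress receptor, which endothelium also expresses, stood at 91.6 in TAN and 180 CPM in ad-lib libraries, short of the fold change threshold.

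Of 16 genes associated with regulatory T cells 5 were called lower at 4PM (Il2ra, Il2rb, Ikzf2, Icos and Ccr8) and 0 higher, with a median log2 fold change of −2.22. The co-stimulator Icos fell from 43.8 to 3.63 CPM (edgeR adjusted p = 0.0408), the interleukin-2 receptor chain Il2rb from 53.8 to 7.79 CPM (0.0386) and Ikzf2, the transcription factor Helios, from 31.9 to 10.6 CPM (0.00994), while the integrin Itgae stood at 6.46 against 20.8 CPM (0.0717). Of 14 effector and cytotoxic genes 4 were called lower (Eomes, Cxcr3, Klrk1 and Klrd1) and 0 higher, with a median of −2.61. The chemokine gene Ccl5 stood at 22.6 in TAN and 73.4 CPM in ad-lib libraries (adjusted p = 0.346), Nkg7, a granule protein, at 7.78 against 30.1 CPM (0.141) and the chemokine receptor Cxcr6 at 4.72 against 27.6 CPM (0.0920), and Klrd1, an NK receptor, fell from 30.2 to 4.34 CPM (0.0466). At the other 5 time points 1 call was made in these 4 lists, Il1rl1 lower at 12AM.

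Of the lists for other cells, 5 of 10 B cell markers were called lower at 4PM, with a median of −4.25, and 3 of 8 lymph node genes (Cxcl13, Cr2 and Chst4), with a median of −3.60. Of 10 macrophage markers 1 was called lower (Csf1r, the colony stimulating factor receptor), with a median of −0.75, and of 8 adipocyte markers 1 was called higher (Fabp4, from 7032 to 19083 CPM), with a median of 1.04. The most abundant B cell markers Ms4a1, Cd79b, Cd79a and Fcmr had log2 fold changes of −3.88, −3.56, −3.70 and −4.32 and were not called (edgeR adjusted p = 0.0567 to 0.0702).

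Likeness of pattern was measured as the mean absolute difference in log2 CPM, centred on each gene's mean over the 48 libraries. Among 14753 genes outside the members with at least 1 CPM, those most like Cd3e were Cd2, Gimap3, Lck, Tbc1d10c and Skap1 (0.324 to 0.350, against a median of 1.86 over the candidates). Those most like Ccr7 included Slamf6, H2-Eb2, Apol7c and Cd79b (0.345 to 0.397, median 2.22). The genes most like Foxp3, Trim7, Ciita, Ptpn7, Arhgap30 and Mns1, were less close, at 0.601 to 0.663 (median 1.66). Among the members the closest pair was Cd8a and Ccr7 (0.362), and Foxp3 was the farthest member from each of the other 9, by 0.944 (Cd4) to 1.28 (Cd3d). Foxp3 had at most 3 counts in 10 of the 48 libraries, where its log2 CPM rests largely on the prior count. The part of counting error in its distances was not tested.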

How the data were processed

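Poly-A selected RNA of 48 sWAT libraries was sequenced on Illumina instruments, and the authors deposited raw, unnormalized read counts of each gene. The submitters' processing notes name TopHat 1.3.3, DESeq2 1.20.0, limma and edgeR and the builds mm9, mm10 and GRCm38 without a role; the counting tool and strandedness are not given in the sources used here. Start and end of 98.11% of the genes are those of GENCODE M21 on GRCm38. The deposited table of mean FPKM per group was not used. Total counts were 15636378 to 29913310 (median 20882118) per library, 0 pairs were identical, and every sample column was used. Groups and replicate numbers came from the sample titles.

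Counts were analysed in R 4.3.3 with edgeR 4.0.16: filterByExpr with a minimum count of 10, TMM factors and a robust quasi-likelihood fit of 12 groups. Genes were called at an adjusted p under 0.05 over all tested genes and an absolute log2 fold change above 1, F tests at the adjusted p alone. Differences from Foxp3 or Cd3e used limma 3.58.1 (trend, robust) on log2 CPM with a prior count of 2. The steps were tested on simulated data. The members and lists were chosen with earlier results of these data known. Named were all 10 members, of each other list the called genes and the 4 with the highest mean CPM, and the 5 genes most like Cd3e, Ccr7 and Foxp3; a few genes that this rule takes are not reported here. Alternatives were RLE factors, other count filters, DESeq2 1.42.0, limma voom, a replicate block, a B cell marker covariate, a prior count of 0.5, the adjusted p alone, separate fits per time point and leaving out libraries. Fits without TAN replicates 1 and 2 at 8PM were added after the values were seen.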

Additional observations from a re-analysis of the deposited data

Results flagged for a closer look

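In 14 of 120 sets of 4 libraries (10 genes in 12 groups) the highest or lowest library was set apart from the other 3 by a share of the range of log2 CPM above Dixon's critical value at 95%. Chance flags about 1 in 20 sets, and the T cell genes move together, so these sets are not independent. Ad-lib replicate 3 at 4AM was the low library for Cd3e (gap of 0.900 of the range, 0.469 CPM), Cd3g (0.834, 0.937 CPM), Cd8a (0.860, 1.93 CPM), Tcf7 (0.908, 0.208 CPM) and Ccr7 (0.842, 1.93 CPM). TAN replicate 4 at 12PM was low for Lef1 (0.8293, 11.5 CPM), Tcf7 (0.831, 24.2 CPM) and Foxp3 (0.845, 1.74 CPM). Ad-lib replicate 4 was low for Cd3d at 12AM (0.889, 32.7 CPM) and for Cd4 at 8PM (0.882, 34.7 CPM), and ad-lib replicate 3 was high for Cd4 at 4PM (0.847, 132 CPM). TAN replicate 3 at 4PM was high for Cd3e (0.862, 15.4 CPM) and Cd3g (0.9505, 16.01 CPM), and TAN replicate 2 for Foxp3 (a gap of 1 with the other 3 at 0, 0.162 CPM). The TAN effect on Foxp3 differed between time points (edgeR F test, adjusted p = 0.0362), as it did for 1793 of all genes (8.98%). This call was lost when some single libraries at 4PM were left out.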

How the results depend on the processing

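The number of T cell genes called lower at 4PM, 3, depended on the processing. It was 1 without a filter on low counts, 1 with at least 10 counts in every library (Cd3g alone could then be fitted), 8 by DESeq2, 1 by limma voom, 5 in a separate fit per time point and 0 with the B cell marker covariate, and 1 to 9 when 1 library was left out. Of all genes, 948, 858, 2198, 1836, 2028 and 0 were called lower in these settings, in the same order. Leaving out 1 library at 4PM gave 235 to 1468. With the covariate the 8PM count was 8. For variation over time within TAN, 2 calls became 1 without the filter, with the stricter filter, by limma voom, with the replicate block and without TAN replicates 1 and 2 at 8PM, and 0 to 5 when 1 library was left out. For the TAN effect between time points, 1 call became 0 without the filter and with the stricter filter, and 0 to 1 when 1 library was left out. Signs turned with the covariate at 4PM, to 1.10 for Cd3d, 0.65 for Cd3e, 0.49 for Cd8a, 0.97 for Cd8b1, 1.54 for Lef1, 1.40 for Tcf7 and 0.98 for Ccr7, and over the mean, to 0.34 for Cd3d, 0.22 for Cd3e, 0.0475 for Cd3g, 0.25 for Cd8a, 0.32 for Cd8b1, 0.78 for Lef1, 0.87 for Tcf7 and 0.39 for Ccr7. Kept signs at 4PM were those of Cd3g (-0.20), Cd4 (-0.20) and Foxp3 (-3.54). With TAN replicates 1 and 2 at 8PM also left out, a choice made after the values were seen, the mean was 0.0591 for Cd3d, 0.00356 for Cd3e, 0.0451 for Cd8b1, 0.50 for Lef1, 0.47 for Tcf7 and 0.19 for Ccr7. Tcf7 over the mean ranged from -0.56 to 0.0932 when 1 library was left out, above 0 without ad-lib replicate 4 at 12PM. The cause of these changes was not tested. Among the alternatives 1160 values kept their direction and their side of the threshold or stayed near their value. Replicate numbers are shared between the diets but did not pair the libraries: 7 of 24 same-numbered pairs had a correlation of deviations over 0.1 (median 0.0305, -0.334 to 0.494, 5000 genes), and 5 of 24 ad-lib libraries correlated best with their own number. With the replicate block, 2 members were called at 4PM and 1 for variation over time within TAN. Depth limits Foxp3, which had 0 to 209 counts a library.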

Other observations

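Some genes outside the 10 members, looked at after the values above were seen, stood out beside them. Flicr, a noncoding gene that overlaps Foxp3, was at 3.49 and 2.37 CPM in TAN replicates 1 and 2 at 8PM, the 2 highest values of the 48 libraries (at most 1.33 CPM elsewhere), while Foxp3 itself was at 1.92 and 8.38 CPM there. The chemokine gene Ccl5 averaged 535 CPM in TAN and 90.6 CPM in ad-lib libraries at 8PM (edgeR adjusted p = 0.176, n = 4 per group). The recombinase gene Rag1, at 0 in TAN replicates 1 and 2 at 8PM, reached 14.1 CPM in another library.

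Ikzf2, on the list of genes associated with regulatory T cells, averaged 22.2 CPM in TAN and 29.2 CPM in ad-lib libraries over the 6 time points. Its log2 fold change was -0.48 ± 0.15 (SE, edgeR adjusted p = 0.0484), short of the fold change threshold. It did not follow Foxp3 at 8PM, where Ikzf2 averaged 21.1 in TAN and 35.8 CPM in ad-lib libraries and Foxp3 2.82 and 2.92 CPM. Which cells gave the Ikzf2 RNA was not tested. Some low-count libraries had a high share of Foxp3 counts beside few CD3 counts. Ad-lib replicate 3 had 16 and 38 at 4AM and 9 and 47 at 12PM, and TAN replicate 2 at 4PM had 3 and 40. The Foxp3 counts themselves were few, the 16 at 4AM being 0.833 CPM, below the ad-lib median of 1.45 CPM. Other low-count libraries had 0 Foxp3 counts.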
